A study of Mus musculus with 12 samples.

Results

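Mouse embryonic fibroblasts in which p53 was knocked down before oncogenic RAS was added were set against fibroblasts given the oncogene alone. Shp53-first cells received a viral vector with a short hairpin against mouse p53 mRNA (shp53) and then a vector with RASV12, the oncogenic form of RAS, and were titled shp53+RAS. RASV12 cells received the RASV12 vector only. Both therefore carried the oncogene, and p53 knockdown was in place first in 1 of them. The comparison takes 6 of the 12 arrays of the series, 3 for each group, chosen by their titles. The other 6 arrays are cells given the vectors in the opposite order (RASV12-first, 3 arrays) and cells given the hairpin alone (shp53, 3 arrays), and they serve here as side values and in the shared estimate of the spread.

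All fibroblasts were grown from C57BL/6 embryos of E12.5 to E13.5. The labels name no clone, passage, embryo or time after transduction, and do not say which RAS gene or species the vector carries. Total RNA was measured on 1-colour Agilent arrays. A level below is the log2 signal of a gene's probe less the 75th percentile of its array, so a level compares arrays for 1 gene and not 1 gene with another. Between 57.4% and 62.4% of the probes were well above background on these 6 arrays, and the number of arrays limits the precision.

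p53 is a transcription factor that is held low by the ubiquitin ligase Mdm2 and accumulates under oncogenic stress. In fibroblasts, strong RAS signalling is known to raise p53 and p16/p19 products of the Cdkn2a locus and to lead to senescence, a lasting arrest with secretion of cytokines, chemokines and proteases. Loss of p53 lets mouse embryonic fibroblasts pass that arrest. In cells that divide, E2F factors drive genes of DNA replication, and the DREAM and MuvB complexes act on genes of mitosis through a promoter element, the cell cycle genes homology region. Interferon-stimulated genes are switched on by a complex that holds Stat2 and Irf9 at a separate element, the interferon-stimulated response element.

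The promoters of genes of mitosis and of interferon-stimulated genes are shown because members of both lists were higher in shp53-first cells and carry these elements often. Each window runs from 250 bases before to 50 after the start site in the RefSeq table (build GRCm38.p6), on the strand of the gene, 5′ to 3′. Capitals in the first 4 mark TTTGAA, the homology region, on either strand.
Bub1b, chr2:118597961-118598260, + strand: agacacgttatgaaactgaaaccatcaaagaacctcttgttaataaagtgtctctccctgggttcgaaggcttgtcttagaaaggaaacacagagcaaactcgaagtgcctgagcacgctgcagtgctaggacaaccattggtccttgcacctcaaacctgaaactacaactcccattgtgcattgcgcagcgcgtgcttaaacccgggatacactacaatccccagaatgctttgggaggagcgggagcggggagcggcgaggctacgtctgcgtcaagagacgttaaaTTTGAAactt
Ttk, chr9:83834439-83834738, + strand: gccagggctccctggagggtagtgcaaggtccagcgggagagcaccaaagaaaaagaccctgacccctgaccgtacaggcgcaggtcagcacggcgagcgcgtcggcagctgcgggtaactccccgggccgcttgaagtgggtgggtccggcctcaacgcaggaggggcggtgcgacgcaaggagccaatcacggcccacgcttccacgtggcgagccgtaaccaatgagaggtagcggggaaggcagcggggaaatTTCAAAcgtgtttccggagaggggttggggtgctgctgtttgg
Knl1, chr2:119046869-119047168, + strand: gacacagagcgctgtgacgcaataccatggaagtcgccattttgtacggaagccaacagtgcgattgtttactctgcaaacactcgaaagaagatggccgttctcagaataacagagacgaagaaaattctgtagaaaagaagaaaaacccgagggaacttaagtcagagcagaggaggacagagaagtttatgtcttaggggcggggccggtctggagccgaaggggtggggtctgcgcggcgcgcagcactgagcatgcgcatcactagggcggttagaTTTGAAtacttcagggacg
Ndc80, chr17:71526808-71527107, - strand: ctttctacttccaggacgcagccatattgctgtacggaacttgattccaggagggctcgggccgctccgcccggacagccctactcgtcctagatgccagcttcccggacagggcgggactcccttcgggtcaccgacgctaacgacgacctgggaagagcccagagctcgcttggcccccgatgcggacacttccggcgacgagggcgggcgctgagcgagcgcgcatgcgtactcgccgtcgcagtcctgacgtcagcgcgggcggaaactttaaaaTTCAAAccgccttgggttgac
Capitals in the next 4 mark GAAA, any 2 bases and GAAA again, the core of the interferon element, on either strand; overlapping matches run together.
Ifit3, chr19:34583279-34583578, + strand: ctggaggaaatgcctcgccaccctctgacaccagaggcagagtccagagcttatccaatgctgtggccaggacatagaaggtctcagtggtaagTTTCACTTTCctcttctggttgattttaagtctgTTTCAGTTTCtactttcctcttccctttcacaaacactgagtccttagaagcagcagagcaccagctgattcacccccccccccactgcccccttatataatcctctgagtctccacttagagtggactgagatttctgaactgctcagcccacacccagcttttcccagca
Ifitm3, chr7:141010695-141010994, - strand: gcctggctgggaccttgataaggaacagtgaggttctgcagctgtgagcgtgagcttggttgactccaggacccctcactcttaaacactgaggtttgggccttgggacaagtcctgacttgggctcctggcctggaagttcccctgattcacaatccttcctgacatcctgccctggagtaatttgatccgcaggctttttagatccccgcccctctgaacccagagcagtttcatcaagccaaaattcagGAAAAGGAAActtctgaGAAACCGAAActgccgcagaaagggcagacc
Gbp3, chr3:142559794-142560093, + strand: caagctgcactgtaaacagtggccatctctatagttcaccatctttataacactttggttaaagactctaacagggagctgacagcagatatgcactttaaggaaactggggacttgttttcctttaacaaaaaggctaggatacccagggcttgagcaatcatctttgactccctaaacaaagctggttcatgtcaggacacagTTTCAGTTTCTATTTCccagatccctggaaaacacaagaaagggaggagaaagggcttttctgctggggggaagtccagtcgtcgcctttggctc
Stat2, chr10:128270248-128270547, + strand: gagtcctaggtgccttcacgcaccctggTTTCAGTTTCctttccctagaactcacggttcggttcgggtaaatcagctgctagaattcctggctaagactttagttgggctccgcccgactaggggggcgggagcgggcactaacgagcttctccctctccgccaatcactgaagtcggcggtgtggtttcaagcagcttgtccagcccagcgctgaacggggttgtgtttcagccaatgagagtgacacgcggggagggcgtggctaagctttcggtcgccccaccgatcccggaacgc
TTTGAA was in 24 of 31 mitosis genes with such a window (77.4%), against 14.6% of the 11029 tested genes with one. CCAAT, the NF-Y box, was in 77.4% of the mitosis windows, against 42.3% of all. The interferon motif was in 14 of 26 interferon-stimulated genes (53.8%), against 3.74% of all, and that motif was added after the values had been seen. TTTCCCGC, an E2F site, was in 20.7% of the replication genes and 23.1% of the homologous repair genes, against 2.15% of all. These are matches of letters in a window, not measured binding.

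Several features of the arrays bear on every result. Genes of the sex chromosomes were left out of the tests because they separated the groups. Xist, the RNA of the inactive X, was at -8.13, -8.07 and -7.56 on the shp53-first arrays, not well above background, against -0.84, -0.78 and -1.41 on the RASV12 arrays. Ddx3y, a Y-linked helicase, was at -0.13, -0.64 and -0.62 in shp53-first cells, against -8.12, -7.87 and -8.16 in RASV12 cells, where it was not well above background. Ddx3y was also high in RASV12-first cells and Xist in shp53 cells. The sex of the cells, and with it the embryo or litter they came from, cannot be told apart from the vectors. Each slide held 1 array of each group, and a group sat at the same position on every slide, so position cannot be told apart from group either.

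The replicates were not equally spaced. Shp53-first replicates 2 and 3 differed by 1.11 times the SD between repeat spots of 1 array, over 179 probes with repeat spots, and RASV12 replicates 1 and 3 by 1.19 times. Every other pair within these groups differed by 3.58 to 5.66 times. Whether a close pair shares a culture is not given in the sources used here. The design text calls all 3 independent biological replicates, and they were kept as such; if a close pair shares a culture, the p-values rest in part on technical spread. Shp53-first replicate 1 and RASV12 replicate 2 stood apart, and counts are also given with the closest pair of each group averaged to 1 value.

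All 12 fibroblast markers, among them Pdgfra, Col1a2 and Vim, were well above background on all 6 arrays. Of 18 tested macrophage and leukocyte markers, 0 were higher and 6 were lower in shp53-first cells. The shares were 0% and 33.3%, against 10.3% and 15.1% of all genes. The log2 of the markers' summed signal was 3.41, 3.19 and 3.66 on the shp53-first arrays, against 3.91, 4.54 and 3.48 on the RASV12 arrays. Most of that sum was Itgam, an integrin chain of myeloid cells, which read 3.07, 2.85 and 3.39 on the shp53-first arrays, against 3.38, 4.18 and 2.70 on the RASV12 arrays and was not called. The list's median level was -6.35, -6.20 and -5.67 on the shp53-first arrays, against -3.62, -2.53 and -3.57 on the RASV12 arrays, with no overlap. The pan-leukocyte gene Ptprc was not well above background on any of the 6. The macrophage gene Adgre1 was below background on all shp53-first arrays and read -7.74, -8.33 and -7.35 on the shp53-first arrays, against -3.75, -1.81 and -3.69 on the RASV12 arrays; it was at least 7.35-fold lower (adjusted p = 0.0132). The count of 6 was 3 without any 1 of the 6 arrays, 11 with the 6 arrays fitted alone and 0 with the closest pairs averaged. With another background correction, normexp, it was 0. The list's median log2 change was then -0.04, against -1.78 in the fit reported. In bulk RNA, fewer cells of a type and less RNA per cell cannot be told apart.

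Of 13904 genes tested, 1435 were higher and 2098 lower in shp53-first cells than in RASV12 cells at a Benjamini-Hochberg adjusted p under 0.05 in limma, which is 10.3% and 15.1% of genes. Among them, 760 rose and 1066 fell by 2-fold or more, and 97 and 222 by 8-fold or more. The median log2 change over all genes was -0.05. The 3 arrays of each group did not overlap in 6034 genes (43.4%), and 3517 called genes had the same sign on each of the 3 slides. The counts were 1531, 855 and 939 higher and 2118, 1437 and 1518 lower without shp53-first replicate 1, 2 or 3. They were 788, 1322 and 780 higher and 1298, 2033 and 1287 lower without RASV12 replicate 1, 2 or 3. With the closest pairs averaged they were 111 and 261. List counts below are to be read beside the 10.3% higher and 15.1% lower over all genes. A share near these is not particular to its list.

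**Figure D1:**
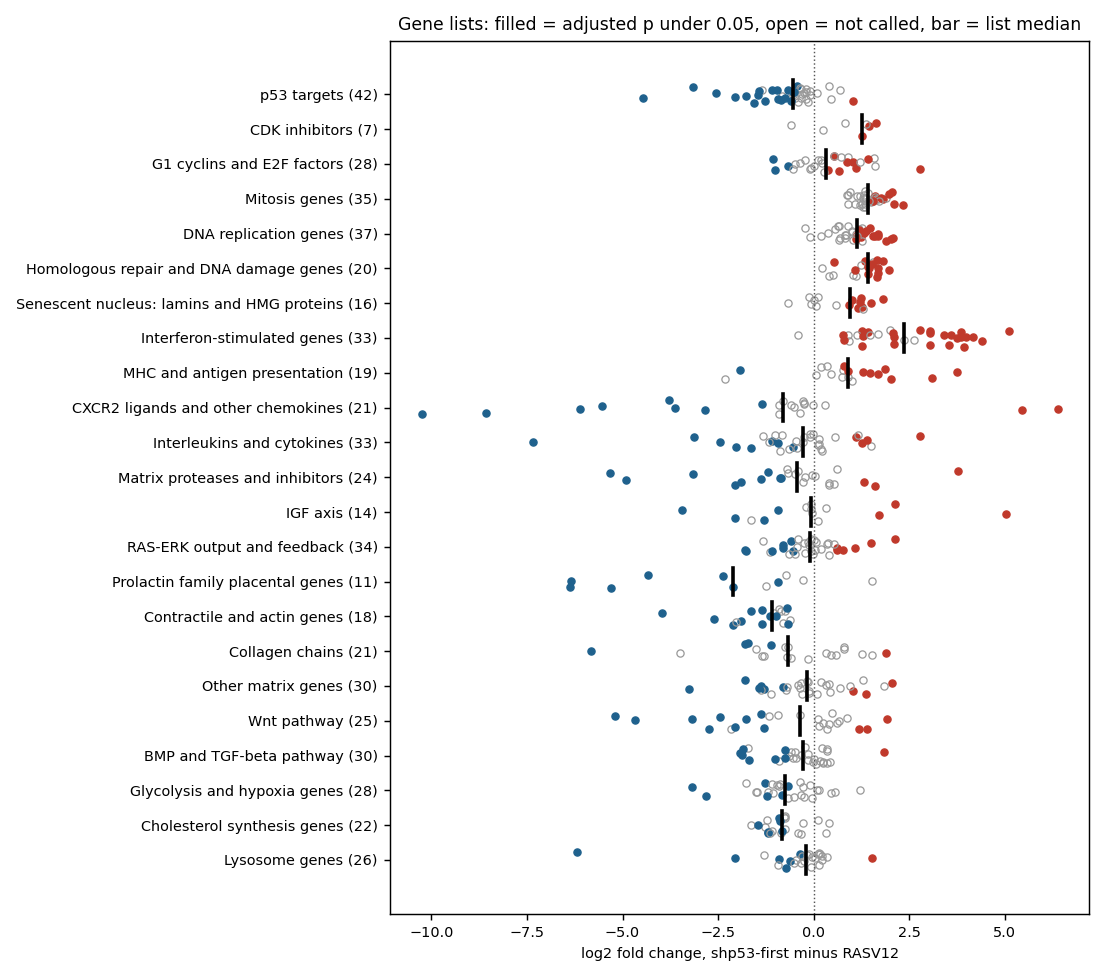
Measured log2 fold change, shp53-first minus RASV12, of each tested gene of 23 gene lists, with the number of tested genes in brackets. Filled points have an adjusted p under 0.05, open points do not, and black bars are list medians. All 35 genes of mitosis lie right of 0, and all 18 contractile genes lie left of it.

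The hairpin's target comes first. Trp53, which encodes p53, read -3.98, -3.43 and -3.44 on the shp53-first arrays, against -0.35, -0.75 and -0.58 on the RASV12 arrays. The groups did not overlap, and the level fell by 3.05 ± 0.19 (SE) on the log2 scale, adjusted p = 7.48e-06. The mean was -3.99 in RASV12-first cells and -3.27 in shp53 cells, so the RASV12 arrays stood above the arrays of each group that carried the hairpin.

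Among 13 tested p53 regulators, 2 were higher and 2 lower. Mdm2, both the ligase of p53 and a p53 target, read 4.15, 4.10 and 4.13 on the shp53-first arrays, against 5.54, 5.88 and 5.60 on the RASV12 arrays. It fell by 1.55 ± 0.14 (SE) on the log2 scale, adjusted p = 6.15e-05, with no overlap between groups. Ppm1d, a phosphatase that turns off the DNA damage response and is itself known as a p53 target, read -0.23, -0.15 and -0.16 on the shp53-first arrays, against -1.39, -1.06 and -1.24 on the RASV12 arrays. It went the other way from Mdm2: it rose by 1.05 ± 0.17 (SE) on the log2 scale, adjusted p = 0.00221. Atm, the kinase that signals double-strand breaks, also rose by 0.67 ± 0.21 (SE) on the log2 scale, adjusted p = 0.0438, and was not called in 16 of 23 alternatives. The count of 2 higher regulators was 1 without any array but shp53-first replicate 1, and 0 with the closest pairs averaged.

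Of 42 tested p53 targets, 19 were lower and 1 was higher, with a median log2 change of -0.53. Perp, a membrane protein of p53-dependent apoptosis and of desmosomes, read 0.64, -0.60 and -0.86 on the shp53-first arrays, against 4.23, 4.06 and 4.26 on the RASV12 arrays. It fell by 4.46 ± 0.34 (SE) on the log2 scale, adjusted p = 2.62e-05, and its mean was -3.17 in RASV12-first cells and -0.14 in shp53 cells. The cell cycle arrest genes moved less: Cdkn1a, which encodes the kinase inhibitor p21, read 2.85, 2.69 and 2.88 on the shp53-first arrays, against 3.52, 3.82 and 3.64 on the RASV12 arrays. It fell by 0.85 ± 0.16 (SE) on the log2 scale, adjusted p = 0.00377. Ccng1, cyclin G1, read 2.91, 2.95 and 2.95 on the shp53-first arrays, against 4.22, 4.59 and 4.39 on the RASV12 arrays and fell by 1.46 ± 0.18 (SE) on the log2 scale, adjusted p = 4.31e-04.

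A further target that fell was Ephx1, a microsomal epoxide hydrolase (log2 change -1.78 ± 0.21 SE, adjusted p = 3.01e-04). The apoptosis genes Bax, Bbc3 and Pmaip1 were among the 22 targets not called. The list's only gene called higher was Ddb2, a damage recognition protein, which read -1.44, -1.84 and -1.76 on the shp53-first arrays, against -3.05, -2.09 and -2.99 on the RASV12 arrays (log2 change 1.03 ± 0.28 SE, adjusted p = 0.0236). With the closest pairs averaged, 5 of the 42 targets were lower and 0 higher.

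**Figure D2:**
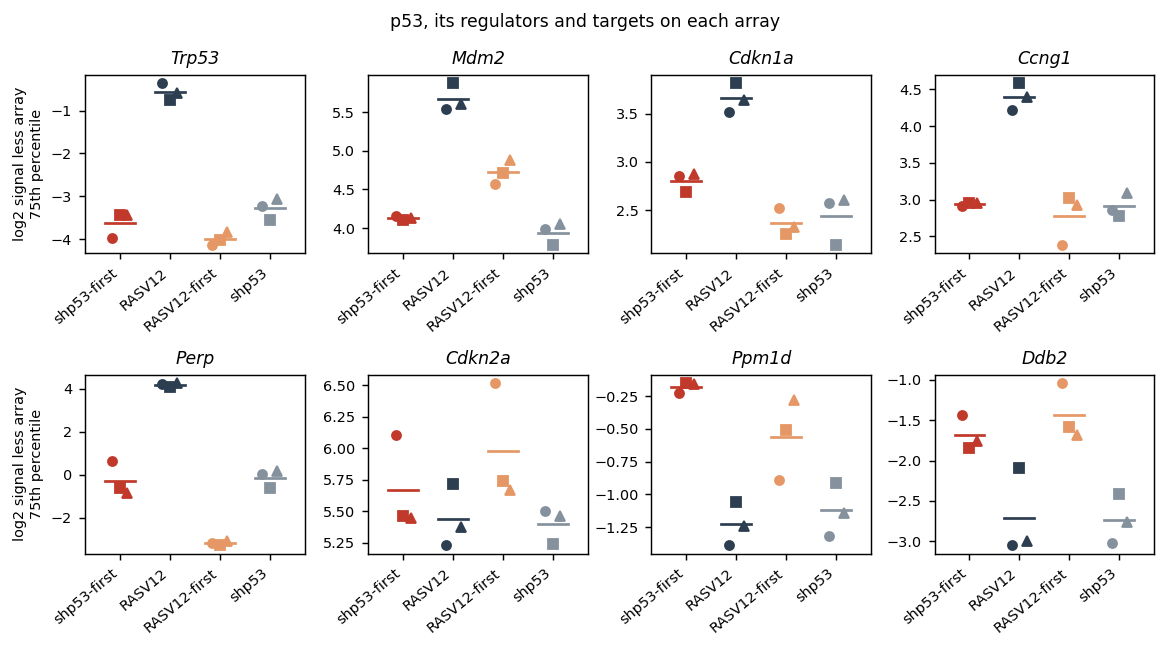
Log2 signal less the array's 75th percentile for Trp53 and 7 related genes on each of the 12 arrays, with shp53-first left of RASV12 and the other groups to their right. Circles, squares and triangles are replicates 1, 2 and 3, and lines are means. Trp53 is near -0.6 in RASV12 cells and below -3 on all other arrays, while Cdkn2a overlaps between shp53-first and RASV12.

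The other inhibitors of cyclin-dependent kinases that were called did not follow p21. Of 7 tested, in a list that leaves out Cdkn1a, 3 were higher and 0 lower. Cdkn2c, which encodes p18 of the INK4 family, read -0.26, -0.13 and -0.02 on the shp53-first arrays, against -1.66, -2.11 and -1.56 on the RASV12 arrays, and it rose by 1.64 ± 0.18 (SE) on the log2 scale, adjusted p = 2.27e-04. Cdkn1b, which encodes p27, read 1.55, 0.89 and 0.94 on the shp53-first arrays, against -0.32, -0.24 and -0.41 on the RASV12 arrays. Cdkn2d, also of the INK4 family, read 2.31, 2.93 and 2.82 on the shp53-first arrays, against 1.56, 1.01 and 1.72 on the RASV12 arrays. Cdkn1b rose by 1.45 ± 0.28 (SE) on the log2 scale, adjusted p = 0.00441, and Cdkn2d rose by 1.26 ± 0.21 (SE) on the log2 scale, adjusted p = 0.00219. Averaging the closest pairs left 1 inhibitor called. Cdkn2a, the p16 and p19Arf locus, read 6.11, 5.46 and 5.45 on the shp53-first arrays, against 5.23, 5.72 and 5.38 on the RASV12 arrays, and was not called (log2 difference 0.23 ± 0.26 SE, adjusted p = 0.567). Its neighbour Cdkn2b, which encodes p15, was not called either (log2 difference -0.60 ± 0.32 SE, adjusted p = 0.202).

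Among 28 G1 cyclins and E2F factors, 8 were higher and 3 lower. E2f2, an activating E2F, read -2.00, -1.47 and -1.47 on the shp53-first arrays, against -4.52, -4.19 and -4.55 on the RASV12 arrays. It rose by 2.77 ± 0.28 (SE) on the log2 scale, adjusted p = 1.52e-04, with no overlap. E2f1, another activator, rose by 0.87 ± 0.22 (SE) on the log2 scale, adjusted p = 0.016. On the side of the brakes, Rb1, the retinoblastoma gene, read -0.58, -1.12 and -1.05 on the shp53-first arrays, against -0.03, 0.44 and 0.04 on the RASV12 arrays and fell by 1.06 ± 0.22 (SE) on the log2 scale, adjusted p = 0.00707. Ccnd2, cyclin D2, fell by 1.01 ± 0.18 (SE) on the log2 scale, adjusted p = 0.003. The count of 8 was 10, 2 and 2 without shp53-first replicate 1, 2 or 3, 3, 4 and 3 without RASV12 replicate 1, 2 or 3, and 1 with the closest pairs averaged.

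DNA replication genes were shifted upward: 14 of 37 were higher and 0 lower, with a median log2 change of 1.13. Their median level was 0.75, 2.09 and 2.08 on the shp53-first arrays, against 0.58, 0.28 and 0.73 on the RASV12 arrays. Shp53-first replicates 2 and 3 were high, and replicate 1 lay just above the RASV12 arrays. Cdt1, which licenses origins, read 3.05, 3.51 and 3.40 on the shp53-first arrays, against 1.69, 1.42 and 1.83 on the RASV12 arrays and rose by 1.67 ± 0.25 (SE) on the log2 scale, adjusted p = 0.00139. Prim1, the primase subunit, read 1.61, 2.91 and 2.78 on the shp53-first arrays, against 0.49, 0.20 and 0.57 on the RASV12 arrays and rose by 2.01 ± 0.40 (SE) on the log2 scale, adjusted p = 0.00559. Rfc4 of the clamp loader and Lig1, the replicative ligase, changed by 1.37 ± 0.24 and 1.46 ± 0.28 on the log2 scale. The count of 14 was 27, 5 and 5 without shp53-first replicate 1, 2 or 3, 9, 7 and 8 without RASV12 replicate 1, 2 or 3, and 0 with the closest pairs averaged.

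Of 20 genes of homologous repair and DNA damage, 13 were higher and 0 lower (median 1.42). Xrcc3, a gene of homologous recombination, read -1.99, -1.50 and -1.51 on the shp53-first arrays, against -2.67, -2.91 and -2.69 on the RASV12 arrays and rose by 1.09 ± 0.20 (SE) on the log2 scale, adjusted p = 0.00407. Bard1, the partner of Brca1, read -1.31, -0.13 and -0.04 on the shp53-first arrays, against -2.00, -2.52 and -2.03 on the RASV12 arrays and rose by 1.69 ± 0.39 (SE) on the log2 scale, adjusted p = 0.0108. Rad18, a ligase of damage tolerance, rose by 1.43 ± 0.33 (SE) on the log2 scale, adjusted p = 0.0115. The count was 17, 3 and 3 without shp53-first replicate 1, 2 or 3, 7, 4 and 6 without RASV12 replicate 1, 2 or 3, and 0 with the closest pairs averaged.

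All 35 genes of mitosis had a positive log2 change, with a median of 1.41, but 8 of them were called. Their median level was 0.31, 1.85 and 1.75 on the shp53-first arrays, against -0.17, -0.52 and -0.02 on the RASV12 arrays. Cdc25b, the phosphatase that starts mitosis, read 0.47, 1.15 and 0.89 on the shp53-first arrays, against -1.17, -1.56 and -1.07 on the RASV12 arrays and rose by 2.10 ± 0.30 (SE) on the log2 scale, adjusted p = 0.00101. Bub1b of the spindle checkpoint read -1.54, -0.08 and -0.26 on the shp53-first arrays, against -2.24, -2.76 and -2.28 on the RASV12 arrays and rose by 1.80 ± 0.43 (SE) on the log2 scale, adjusted p = 0.0132. Ttk, the checkpoint kinase Mps1, read -4.77, -2.89 and -3.32 on the shp53-first arrays, against -5.66, -5.73 and -5.74 on the RASV12 arrays, with 1 of the 3 RASV12 arrays well above background. Knl1 and Ndc80, parts of the kinetochore, changed by 2.33 ± 0.64 and 1.76 ± 0.49. In these 4 genes, whose promoters are shown above, shp53-first replicate 1 was the lowest of its group and all RASV12 arrays were lower still.

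The usual proliferation markers were not called. Mki67 read 0.97, 3.56 and 3.47 on the shp53-first arrays, against 1.27, 0.74 and 1.10 on the RASV12 arrays (log2 difference 1.63 ± 0.64 SE, adjusted p = 0.0877), and Ccnb1, cyclin B1, read 0.73, 2.79 and 2.64 on the shp53-first arrays, against 0.82, 0.15 and 0.95 on the RASV12 arrays (log2 difference 1.41 ± 0.65 SE, adjusted p = 0.14). In both, shp53-first replicate 1 lay within the range of the RASV12 arrays. Cdk1 (log2 difference 1.29 ± 0.56 SE, adjusted p = 0.119) and the mitotic factor Foxm1 (log2 difference 1.58 ± 0.68 SE, adjusted p = 0.118) had the same order of arrays. The count of called mitosis genes was 34, 1 and 2 without shp53-first replicate 1, 2 or 3, 3, 3 and 2 without RASV12 replicate 1, 2 or 3, and 0 with the closest pairs averaged.

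Lamins, HMG proteins and other nuclear proteins that have been linked to senescence were tested as a list of 16, of which 8 were higher and 0 lower. Hmgb2, a chromatin protein, read 3.44, 4.59 and 4.71 on the shp53-first arrays, against 2.43, 2.34 and 2.52 on the RASV12 arrays and rose by 1.82 ± 0.39 (SE) on the log2 scale, adjusted p = 0.00803. Hmgb1 rose by 0.92 ± 0.16 (SE) on the log2 scale, adjusted p = 0.00254. Cbx5, heterochromatin protein 1 alpha, rose by 1.16 ± 0.19 (SE) on the log2 scale, adjusted p = 0.00214, and H2az1, a histone variant, rose by 1.27 ± 0.23 (SE) on the log2 scale, adjusted p = 0.00367. Lmnb1, lamin B1, read -0.00, 2.40 and 2.36 on the shp53-first arrays, against 0.37, -0.00 and 0.48 on the RASV12 arrays: shp53-first replicate 1 was at the foot of the RASV12 range, and the gene was not called (log2 difference 1.30 ± 0.59 SE, adjusted p = 0.131). The count of 8 was 5 without shp53-first replicate 2, 5 without RASV12 replicate 3, and 0 with the closest pairs averaged.

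**Figure D3:**
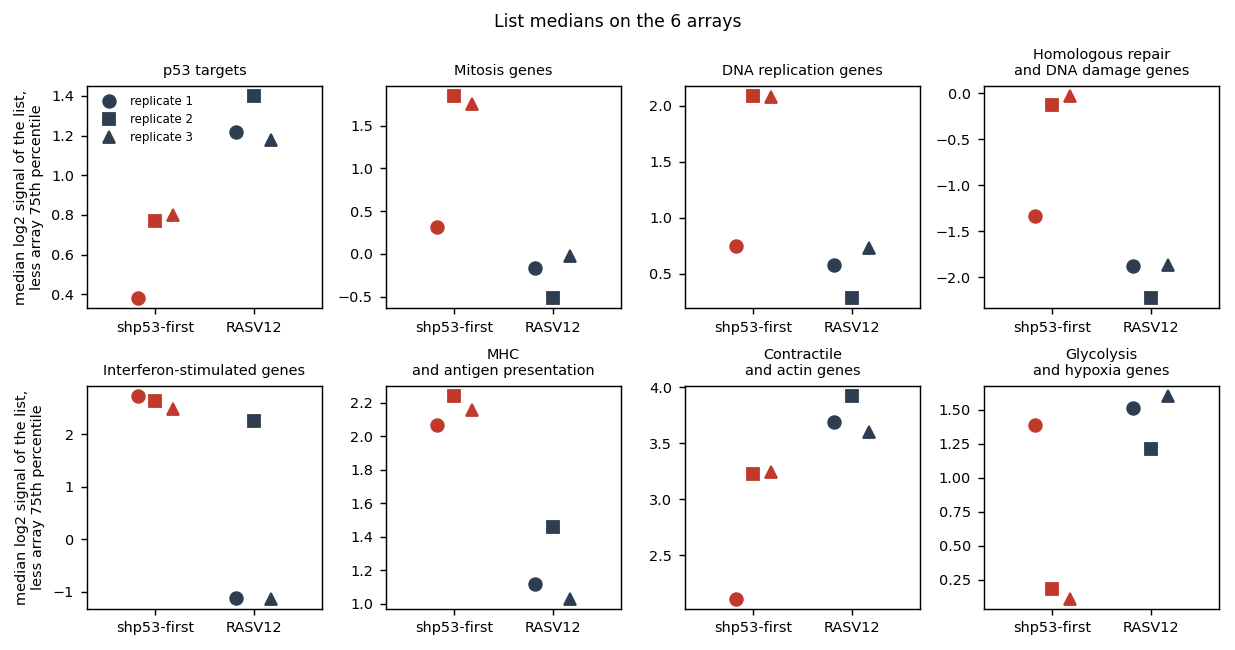
Median level of 8 gene lists on each of the 6 arrays, as log2 signal less the array's 75th percentile, with shp53-first left of RASV12. In the cell cycle lists shp53-first replicate 1 lies close to the RASV12 arrays, and in the interferon list RASV12 replicate 2, at 2.25, lies close to the shp53-first arrays, at 2.47 to 2.72.

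Interferon-stimulated genes were higher in shp53-first cells: 24 of 33 were called higher and 0 lower, with a median log2 change of 2.35. Their median level was 2.72, 2.63 and 2.47 on the shp53-first arrays, against -1.11, 2.25 and -1.13 on the RASV12 arrays. All shp53-first arrays were high, and 2 of the 3 RASV12 arrays were low while replicate 2 was nearly as high. Irf7, the factor that amplifies interferon production, read 0.85, 1.38 and 1.12 on the shp53-first arrays, against -4.16, -0.28 and -4.15 on the RASV12 arrays and rose by 3.98 ± 0.85 (SE) on the log2 scale, adjusted p = 0.00794. Iigp1, an immunity-related GTPase, read 2.28, 1.91 and 2.19 on the shp53-first arrays, against -2.22, 0.25 and -2.93 on the RASV12 arrays and rose by 3.76 ± 0.69 (SE) on the log2 scale, adjusted p = 0.00362. Irf9, the DNA-binding partner of Stat2, read 2.85, 2.82 and 2.79 on the shp53-first arrays, against 0.89, 2.37 and 0.91 on the RASV12 arrays and rose by 1.43 ± 0.32 (SE) on the log2 scale, adjusted p = 0.0104.

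In each interferon-stimulated gene named here, RASV12 replicates 1 and 3 were the lowest arrays. Irf1, a factor of the same family, rose by 1.26 ± 0.23 (SE) on the log2 scale, adjusted p = 0.0035. Ifit3, Ifit3b and Rsad2, antiviral genes, were among the 15 largest increases of all. Ifit3b, and Slfn8 named below, were outside the list and not in its counts. Ifit3 read 4.55, 4.92 and 5.01 on the shp53-first arrays, against -1.15, 3.60 and -1.13 on the RASV12 arrays and rose by 4.39 ± 1.05 (SE) on the log2 scale, adjusted p = 0.0134. Ifit3b read 2.94, 3.27 and 3.43 on the shp53-first arrays, against -4.30, 1.96 and -4.13 on the RASV12 arrays (log2 change 5.37 ± 1.31 SE, adjusted p = 0.0146). Rsad2, viperin, read 1.23, 0.28 and 0.13 on the shp53-first arrays, against -6.82, -0.63 and -6.28 on the RASV12 arrays (log2 change 5.12 ± 1.41 SE, adjusted p = 0.0239), with 1 of 3 RASV12 arrays well above background. Slfn8, of the Schlafen family, read 0.14, 0.11 and 0.11 on the shp53-first arrays, against -6.58, -2.92 and -7.00 on the RASV12 arrays and rose by 5.62 ± 1.03 (SE) on the log2 scale, adjusted p = 0.00368, also with 1 of 3 RASV12 arrays well above background. The probes of Ifit3 and Ifit3b belong to near-identical genes, so their signals may be shared.

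The call on this list rests on few arrays. Its count was 17, 11 and 13 without shp53-first replicate 1, 2 or 3, 5, 30 and 6 without RASV12 replicate 1, 2 or 3. It was 7 when the 6 arrays were fitted without the others, and 0 with the closest pairs averaged.

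Of 19 genes of MHC and antigen presentation, 9 were higher and 1 lower. Tap1, the peptide transporter, read -1.16, -0.87 and -1.28 on the shp53-first arrays, against -3.48, -2.51 and -3.42 on the RASV12 arrays and rose by 2.03 ± 0.26 (SE) on the log2 scale, adjusted p = 5.23e-04. Psmb9 and Psmb8, subunits of the immunoproteasome, read 1.51, 1.56 and 1.60 on the shp53-first arrays, against -2.82, -1.08 and -2.69 on the RASV12 arrays and 2.40, 2.86 and 3.09 on the shp53-first arrays, against -1.14, 1.09 and -0.89 on the RASV12 arrays. Their changes of 3.75 ± 0.62 and 3.10 ± 0.55 came with RASV12 replicate 2 above the other RASV12 arrays in each case. H2-K1, a class I heavy chain, rose by 1.87 ± 0.42 (SE) on the log2 scale, adjusted p = 0.0102; its probe can share signal with other class I genes. The gene called lower was H2-Eb1, a class II chain (log2 change -1.93 ± 0.59 SE, adjusted p = 0.0371), which was not called without shp53-first replicate 2 or 3, without RASV12 replicate 1 or 3, or with the closest pairs averaged. The count of 9 was 8, 5 and 6 without shp53-first replicate 1, 2 or 3, 4, 10 and 4 without RASV12 replicate 1, 2 or 3, and 1 with the closest pairs averaged.

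Secreted factors went in both directions. Of 21 chemokines, 2 were higher and 8 lower; of 33 interleukins and cytokines, 4 were higher and 8 lower; of 24 matrix proteases and their inhibitors, 3 were higher and 9 lower. Ppbp, which is cut to the neutrophil attractant CXCL7, read -7.58, -7.79 and -7.25 on the shp53-first arrays, against 2.65, 2.53 and 2.91 on the RASV12 arrays. It was not well above background on any shp53-first array and was at least 403-fold lower (adjusted p = 2.01e-08). Its mean was -7.76 in RASV12-first cells and -0.58 in shp53 cells. Pf4, platelet factor 4, read -8.26, -8.71 and -7.78 on the shp53-first arrays, against 0.24, 0.33 and 0.42 on the RASV12 arrays and was at least 78.1-fold lower (adjusted p = 3.39e-04).

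The ligands of the neutrophil receptor CXCR2 that were called were lower. Cxcl3 read -5.07, -6.07 and -6.95 on the shp53-first arrays, against 0.09, -0.10 and 0.26 on the RASV12 arrays and fell by 6.11 ± 0.38 (SE) on the log2 scale, adjusted p = 6.71e-06, with 2 of 3 shp53-first arrays well above background. Cxcl5 read 3.21, 2.30 and 2.07 on the shp53-first arrays, against 6.25, 6.44 and 6.24 on the RASV12 arrays and fell by 3.79 ± 0.42 (SE) on the log2 scale, adjusted p = 2.31e-04. Cxcl1, a further ligand, was not called (log2 difference -0.59 ± 0.55 SE, adjusted p = 0.473). Ccl6, a chemokine of myeloid cells, was at least 61.6-fold lower (adjusted p = 2.34e-04). Ccl5 and Cxcl10, which attract T cells, were the chemokines called higher. Ccl5 read 5.46, 5.21 and 5.33 on the shp53-first arrays, against -3.09, 2.76 and -2.80 on the RASV12 arrays (log2 change 6.38 ± 1.19 SE, adjusted p = 0.00409), and Cxcl10 read 5.31, 4.63 and 4.57 on the shp53-first arrays, against -2.61, 3.27 and -2.53 on the RASV12 arrays (log2 change 5.46 ± 1.27 SE, adjusted p = 0.0118). In both, RASV12 replicate 2 stood well above the other RASV12 arrays, as in the interferon-stimulated genes. Without RASV12 replicate 3, 1 chemokine was higher, and with the closest pairs averaged 0 were higher and 5 lower.

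Among the cytokines, Il1a, the membrane-bound interleukin 1 that drives the secretory phenotype, read -8.31, -8.71 and -7.76 on the shp53-first arrays, against -0.36, -1.91 and -0.49 on the RASV12 arrays. It was well above background on the 3 RASV12 arrays and on 0 of the other 9 arrays, and was at least 32.9-fold lower (adjusted p = 2.90e-06). Tslp, thymic stromal lymphopoietin, read 0.97, 0.66 and 0.56 on the shp53-first arrays, against 2.90, 3.77 and 2.92 on the RASV12 arrays and fell by 2.46 ± 0.40 (SE) on the log2 scale, adjusted p = 0.00187. Fgf2, a mitogen of fibroblasts, fell by 0.93 ± 0.18 (SE) on the log2 scale, adjusted p = 0.00483. Hgf, hepatocyte growth factor, read 0.10, -1.05 and -1.05 on the shp53-first arrays, against -3.78, -2.63 and -3.94 on the RASV12 arrays and rose by 2.78 ± 0.43 (SE) on the log2 scale, adjusted p = 0.0016. Il6, the best known cytokine of senescent cells, read 3.89, 3.30 and 3.21 on the shp53-first arrays, against 4.70, 4.08 and 4.64 on the RASV12 arrays and was not called (log2 difference -1.01 ± 0.62 SE, adjusted p = 0.266). Il6 averaged -0.60 in RASV12-first cells and 1.23 in shp53 cells. The 4 higher cytokines were 2 without shp53-first replicate 2 or RASV12 replicate 1 or 3. The 8 lower ones were 11, 5 and 5 without shp53-first replicate 1, 2 or 3, 5, 6 and 5 without RASV12 replicate 1, 2 or 3, and 1 with the closest pairs averaged.

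Genes of the plasminogen system that were called fell. Plau, urokinase, read -0.58, -0.30 and -0.57 on the shp53-first arrays, against 1.46, 1.67 and 1.58 on the RASV12 arrays and fell by 2.06 ± 0.19 (SE) on the log2 scale, adjusted p = 7.21e-05. Serpinb2, its inhibitor PAI-2, read -1.67, -1.99 and -2.08 on the shp53-first arrays, against 2.89, 3.02 and 3.05 on the RASV12 arrays and fell by 4.90 ± 0.56 (SE) on the log2 scale, adjusted p = 2.91e-04. The gelatinase Mmp9 read 3.38, 2.63 and 2.48 on the shp53-first arrays, against -1.52, 0.20 and -1.53 on the RASV12 arrays and rose by 3.78 ± 0.42 (SE) on the log2 scale, adjusted p = 2.53e-04. Mmp3, stromelysin, was also higher (log2 change 1.59 ± 0.50 SE, adjusted p = 0.0409), with means of 7.28 in RASV12-first cells and 1.99 in shp53 cells. Mmp13, a collagenase, read 1.33, -1.67 and -1.30 on the shp53-first arrays, against 4.79, 4.68 and 4.83 on the RASV12 arrays and fell by 5.32 ± 0.80 (SE) on the log2 scale, adjusted p = 0.0013. Mcpt1, a mast cell protease outside the list, was at least 35.8-fold lower (adjusted p = 6.81e-05). The 3 higher genes of the list were 1 without shp53-first replicate 1 or RASV12 replicate 1 or 3. Averaging the closest pairs left 1 higher and 3 lower.

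Some macrophage and leukocyte genes shared a detection pattern with some of these factors. Ppbp, Pf4, Ccl6 and the macrophage marker Adgre1 were each well above background on all RASV12 and all shp53 arrays, and on 0 shp53-first and 0 RASV12-first arrays. The level of Adgre1 averaged -7.76 in RASV12-first cells and 1.55 in shp53 cells. Levels did not all run together. Adgre1 read -3.75, -1.81 and -3.69 on the RASV12 arrays, below its shp53 mean. Ppbp went the other way, with means of 2.70 in RASV12 cells and -0.58 in shp53 cells. Tyrobp, a signalling adaptor of myeloid cells, was at least 13.2-fold lower (adjusted p = 0.00407) and had the same detection by group, as did C1qc and Laptm5. Other markers of the list did not. Cd68, Csf1r, Itgam, Cd14, Fcer1g and C1qb were well above background on all 12 arrays. Ptprc, Fcgr1 and Cx3cr1 were so on 0 RASV12 arrays. The part of macrophages and other leukocytes in these differences was not tested. Il1a, Mcpt1 and Prl8a6 were detected otherwise: on all RASV12 arrays and on 0 shp53 arrays.

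**Figure D4:**
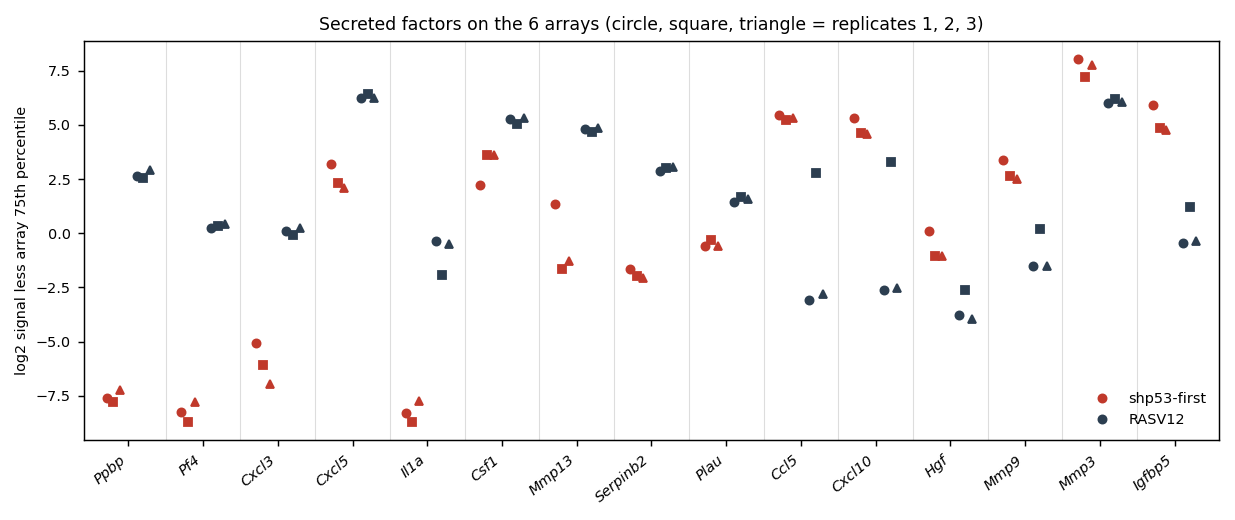
Log2 signal less the array's 75th percentile of 15 secreted factors on the 6 arrays, with shp53-first (red) left of RASV12 (dark) for each gene. Ppbp, Pf4 and Il1a lie below -7 on the shp53-first arrays, and Ccl5 and Cxcl10 show RASV12 replicate 2 apart from replicates 1 and 3.

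Of 14 genes of the IGF axis, 3 were higher and 4 lower. Igfbp5, an IGF binding protein, read 5.91, 4.84 and 4.78 on the shp53-first arrays, against -0.45, 1.20 and -0.34 on the RASV12 arrays and rose by 5.04 ± 0.46 (SE) on the log2 scale, adjusted p = 7.28e-05. Igf2, the fetal growth factor, rose by 1.70 ± 0.31 (SE) on the log2 scale, adjusted p = 0.00352. Igfbp2 read -2.91, -4.36 and -4.45 on the shp53-first arrays, against -0.38, -0.63 and -0.35 on the RASV12 arrays and fell by 3.45 ± 0.41 (SE) on the log2 scale, adjusted p = 3.48e-04, and Igfbp7 fell by 1.29 ± 0.19 (SE) on the log2 scale, adjusted p = 0.00114. Igfbp3 was called in neither direction: it read 2.20, -1.21 and -1.33 on the shp53-first arrays, against -0.82, 1.80 and -0.73 on the RASV12 arrays, so the arrays that stood apart opposed their own groups (log2 difference -0.20 ± 1.18 SE, adjusted p = 0.923). The 4 lower genes were 2 when any array but shp53-first replicate 1 was left out, and with the closest pairs averaged.

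Both groups carried RASV12, so genes of RAS and of ERK output were read next. Hras read 1.34, 2.08 and 1.99 on the shp53-first arrays, against 2.63, 2.36 and 2.84 on the RASV12 arrays. It fell by 0.81 ± 0.25 (SE) on the log2 scale, adjusted p = 0.0413, and was not called in 15 of 23 alternatives. Nras (log2 difference -0.14 ± 0.18 SE, adjusted p = 0.629) was not called in the fit reported. Which of these probes would see the vector's transcript is not given in the sources used here. Of 34 tested ERK genes, 6 were higher and 7 lower (17.6% and 20.6%, against 10.3% and 15.1% of all genes). Fosl1, Dusp6 and Etv4, usual readouts of ERK, were among the 21 not called, with log2 differences of 0.04, 0.35 and -0.12.

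The feedback genes that differed were of both signs. Spry1, a Sprouty inhibitor, read 2.55, 2.21 and 2.18 on the shp53-first arrays, against 0.12, 0.36 and 0.06 on the RASV12 arrays and rose by 2.13 ± 0.35 (SE) on the log2 scale, adjusted p = 0.00206, but its mean was 1.91 in RASV12-first cells and 3.65 in shp53 cells. Epha2, a receptor induced by RAS, read 0.88, 1.08 and 0.94 on the shp53-first arrays, against 2.89, 2.40 and 2.97 on the RASV12 arrays and fell by 1.79 ± 0.30 (SE) on the log2 scale, adjusted p = 0.00227. Dusp1, a MAP kinase phosphatase, fell by 0.80 ± 0.14 (SE) on the log2 scale, adjusted p = 0.00286, and Fosb, an AP-1 subunit, rose by 0.62 ± 0.12 (SE) on the log2 scale, adjusted p = 0.00436. Without RASV12 replicate 1 or 3 the counts were 3 and 2 higher and 4 and 4 lower. With the closest pairs averaged they were 0 and 0.

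Contractile genes were lower. All 18 tested had a negative log2 change (median -1.09), and 11 were called lower. Their median level was 2.11, 3.22 and 3.24 on the shp53-first arrays, against 3.69, 3.92 and 3.60 on the RASV12 arrays. Shp53-first replicate 1 was the lowest array. Actg2, smooth muscle gamma actin, read -3.01, -2.26 and -2.31 on the shp53-first arrays, against 0.62, 2.87 and 0.84 on the RASV12 arrays and fell by 3.97 ± 0.54 (SE) on the log2 scale, adjusted p = 7.65e-04. Lmod1, an actin nucleator of smooth muscle, read -6.50, -5.16 and -4.88 on the shp53-first arrays, against -2.88, -3.06 and -2.78 on the RASV12 arrays and fell by 2.61 ± 0.34 (SE) on the log2 scale, adjusted p = 6.27e-04. Cald1, caldesmon, fell by 0.66 ± 0.13 (SE) on the log2 scale, adjusted p = 0.00498. Acta2, smooth muscle alpha actin, read 3.18, 4.88 and 4.82 on the shp53-first arrays, against 6.09, 6.37 and 6.14 on the RASV12 arrays and fell by 1.91 ± 0.41 (SE) on the log2 scale, adjusted p = 0.00768. The count of 11 was 7, 10 and 11 without shp53-first replicate 1, 2 or 3, 6, 7 and 6 without RASV12 replicate 1, 2 or 3, and 2 with the closest pairs averaged.

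In the matrix, 1 of 21 collagen chains was higher and 4 lower (4.76% and 19%). Of 30 other matrix genes, 3 were higher and 6 lower (10% and 20%). Over all genes the shares were 10.3% and 15.1%. Col10a1, the collagen of hypertrophic cartilage, was at least 11.5-fold lower (adjusted p = 4.94e-05). Col8a1 read -2.07, -0.79 and -0.83 on the shp53-first arrays, against 0.58, 0.41 and 0.69 on the RASV12 arrays and fell by 1.79 ± 0.32 (SE) on the log2 scale, adjusted p = 0.00344. The called lower matrix genes included the elastic fibre genes Mfap5 (log2 change -3.26 ± 0.37 SE, adjusted p = 2.62e-04) and Fbln2 (log2 change -1.79 ± 0.19 SE, adjusted p = 1.98e-04) and the crosslinking enzyme Lox (log2 change -1.39 ± 0.23 SE, adjusted p = 0.00244). Without shp53-first replicate 1, 8 collagen chains were lower. The 3 higher matrix genes were 1 without shp53-first replicate 1 or 3 or RASV12 replicate 1 or 3. Averaging the closest pairs left 1 lower collagen chain and 0 higher and 2 lower matrix genes.

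Of 30 adhesion and mesenchymal genes, 1 was higher and 10 lower. Itgb1, the common integrin beta chain, read 2.46, 2.41 and 2.26 on the shp53-first arrays, against 3.50, 3.37 and 3.49 on the RASV12 arrays and fell by 1.07 ± 0.13 (SE) on the log2 scale, adjusted p = 4.81e-04. Itga5, the fibronectin receptor chain, read -0.39, -0.36 and -0.38 on the shp53-first arrays, against 0.94, 0.56 and 0.76 on the RASV12 arrays and fell by 1.13 ± 0.22 (SE) on the log2 scale, adjusted p = 0.00468. Cdh3, P-cadherin, was lower as well (log2 change -1.98 ± 0.43 SE, adjusted p = 0.00878). The transcription factors Snai1, Snai2, Zeb1 and Zeb2 were not called. The count of 10 was 5 without RASV12 replicate 1, 5 without RASV12 replicate 3, and 0 with the closest pairs averaged.

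Homeobox genes of the Hox clusters, which carry positional identity along the body axis and the limb, split by cluster. HoxC genes were lower in shp53-first cells, 7 of 8 (median -2.73). Hoxc4 read -2.79, -3.33 and -2.50 on the shp53-first arrays, against 0.83, 0.32 and 0.89 on the RASV12 arrays and fell by 3.55 ± 0.22 (SE) on the log2 scale, adjusted p = 6.71e-06. Hoxc8 read -5.19, -5.12 and -5.33 on the shp53-first arrays, against -1.99, -2.75 and -2.71 on the RASV12 arrays and fell by 2.73 ± 0.19 (SE) on the log2 scale, adjusted p = 1.60e-05, with 2 of 3 shp53-first arrays well above background. Hoxc6 fell by 2.82 ± 0.25 (SE) on the log2 scale, adjusted p = 6.15e-05. The single HoxC gene not called was Hoxc10. Leaving out any 1 of the 6 arrays kept the count at 7, and with the closest pairs averaged it was 4. With another background correction, normexp, it was 2, and the list's median log2 change was -0.77.

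Within HoxA and HoxD the calls differed by position in the cluster. Hoxa2 to Hoxa4, Hoxd3 and Hoxd4, toward the start of their clusters, were higher: Hoxa2 read -0.64, -0.70 and -0.83 on the shp53-first arrays, against -3.64, -3.84 and -3.55 on the RASV12 arrays and rose by 2.96 ± 0.21 (SE) on the log2 scale, adjusted p = 1.68e-05, Hoxa3 changed by 1.79 ± 0.24 and Hoxa4 by 1.25 ± 0.25. Hoxd3 rose by 2.23 ± 0.47 (SE) on the log2 scale, adjusted p = 0.00733. The tested genes from Hoxa5 to Hoxa13 were not called, nor were Hoxd8 and Hoxd9. Hoxd10 to Hoxd13, which pattern the distal limb, were lower. Hoxd13 read -2.54, -5.66 and -5.09 on the shp53-first arrays, against 0.32, 0.40 and 0.17 on the RASV12 arrays and fell by 4.73 ± 0.71 (SE) on the log2 scale, adjusted p = 0.00133. Hoxd11 read -3.45, -5.60 and -4.55 on the shp53-first arrays, against -1.33, -1.11 and -1.58 on the RASV12 arrays and fell by 3.19 ± 0.53 (SE) on the log2 scale, adjusted p = 0.00213. Shp53-first replicate 1 was the nearest to the RASV12 arrays in all 4 genes.

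HoxB was mixed, with 4 of 8 higher and 1 lower. Hoxb3 rose by 1.12 ± 0.17 (SE) on the log2 scale, adjusted p = 0.00133, and Hoxb9 fell by 1.31 ± 0.32 (SE) on the log2 scale, adjusted p = 0.0146. In the other groups, Hoxc6 averaged 4.61 in RASV12-first cells and 3.04 in shp53 cells, and Hoxd13 averaged -7.53 in RASV12-first cells and 0.73 in shp53 cells. With the closest pairs averaged, 1 HoxA gene was higher, 0 HoxB genes were called and 0 HoxD genes were called. The 2 higher HoxD genes were 1 without any 1 of the 6 arrays, while 4 or 5 HoxD genes were lower. With normexp, 1 HoxA gene was higher, and 0 HoxB and 0 HoxD genes were called. The median log2 change of HoxD was then -0.27, against -1.76 in the fit reported.

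**Figure D5:**
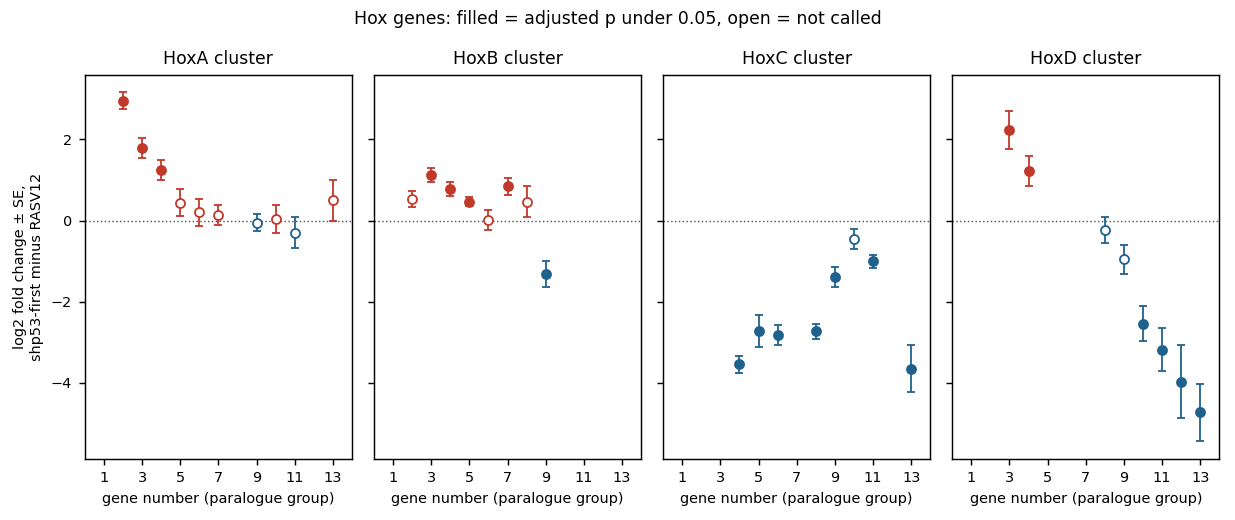
Log2 fold change, shp53-first minus RASV12, with its SE for the Hox genes reported, ordered by number within its cluster. Filled points have an adjusted p under 0.05. HoxC genes lie below 0, and HoxD runs from 2.23 at Hoxd3 to -4.73 at Hoxd13.

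Other patterning factors were called in both directions, 12 of 36 higher and 7 lower. Pax3, a factor of neural crest and muscle precursors, read -0.12, -0.34 and -0.32 on the shp53-first arrays, against -4.71, -5.02 and -4.75 on the RASV12 arrays and rose by 4.56 ± 0.23 (SE) on the log2 scale, adjusted p = 2.78e-06. Its mean was -4.62 in RASV12-first cells and -4.60 in shp53 cells, so the shp53-first arrays stood above all other groups. Tbx1, of the pharyngeal arches, read 1.52, 1.81 and 1.72 on the shp53-first arrays, against -1.64, -1.59 and -1.56 on the RASV12 arrays and rose by 3.28 ± 0.33 (SE) on the log2 scale, adjusted p = 1.45e-04. Pitx1, of the hindlimb, was well above background on 1 of 3 shp53-first arrays and read -7.14, -7.83 and -4.87 on the shp53-first arrays, against 0.04, 0.45 and 0.22 on the RASV12 arrays. It fell by 6.85 ± 0.69 (SE) on the log2 scale, adjusted p = 1.35e-04. Wt1, of mesothelium and kidney, was at least 9.09-fold lower (adjusted p = 2.00e-05).

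Tlx1, a homeobox gene of the spleen, was well above background on the 3 shp53-first arrays and on 0 of the other 9, and was at least 5.99-fold higher (adjusted p = 6.81e-05) than in RASV12 cells. The 12 higher factors were 10, 7 and 13 without shp53-first replicate 1, 2 or 3, 5, 10 and 6 without RASV12 replicate 1, 2 or 3, and 4 with the closest pairs averaged. Without RASV12 replicate 3 the lower factors were 4.

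In the Wnt pathway, 3 of 25 genes were higher and 9 lower. Rspo2, an R-spondin that amplifies Wnt signals, read -5.46, -5.20 and -5.10 on the shp53-first arrays, against -1.00, 0.20 and -0.92 on the RASV12 arrays and fell by 4.68 ± 0.48 (SE) on the log2 scale, adjusted p = 1.59e-04. Rspo3 fell by 1.31 ± 0.17 (SE) on the log2 scale, adjusted p = 5.36e-04. Wnt11, a ligand, read -4.27, -4.52 and -4.05 on the shp53-first arrays, against -2.03, -2.53 and -2.07 on the RASV12 arrays and fell by 2.07 ± 0.25 (SE) on the log2 scale, adjusted p = 4.02e-04. Dkk1, a Wnt inhibitor, was well above background on all shp53-first and 0 RASV12 arrays and was at least 2.59-fold higher (adjusted p = 0.00215). The target gene Axin2 was not called (log2 difference 0.10). The lower count was 3 with the closest pairs averaged, and the 3 higher genes were 1 without RASV12 replicate 1 or 3. With normexp, 0 genes were higher and 1 lower. The list's median log2 change was then 0.38, against -0.35 in the fit reported.

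Of 30 BMP and TGF-beta genes, 1 was higher and 7 lower. Inhba, the activin A subunit, read 3.52, 3.49 and 3.49 on the shp53-first arrays, against 5.39, 5.33 and 5.37 on the RASV12 arrays and fell by 1.86 ± 0.25 (SE) on the log2 scale, adjusted p = 7.85e-04. Bmpr1b, a BMP receptor, was lower (log2 change -1.69 ± 0.34 SE, adjusted p = 0.00547). The ligands Tgfb1, Tgfb2 and Tgfb3 and the Id targets were not called. With the closest pairs averaged, 0 of these genes were lower.

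Prolactins of the placenta, hormones made by trophoblast, were lower. Of 22 listed, 19 were named on the array and 11 were tested. The others had no probe well above background on every array of some group. Of the 11 tested, 0 were higher and 7 lower in shp53-first cells (median -2.12). Members measured only in RASV12 cells passed the filter through that group, so the filter itself favours lower calls here. Prl3d1, placental lactogen I, read -1.02, -1.09 and -1.40 on the shp53-first arrays, against 5.59, 4.25 and 5.75 on the RASV12 arrays and fell by 6.37 ± 0.53 (SE) on the log2 scale, adjusted p = 3.99e-05. Prl3d2, a near-identical copy, read -1.42, -1.66 and -1.85 on the shp53-first arrays, against 5.12, 3.79 and 5.20 on the RASV12 arrays and fell by 6.35 ± 0.85 (SE) on the log2 scale, adjusted p = 7.13e-04; the signals of these copies may be shared. Prl8a9 read -3.44, -5.24 and -5.37 on the shp53-first arrays, against 0.77, 0.26 and 0.80 on the RASV12 arrays and fell by 5.29 ± 0.51 (SE) on the log2 scale, adjusted p = 9.46e-05, with 2 of 3 shp53-first arrays well above background. Prl8a6 was at least 2.69-fold lower (adjusted p = 9.64e-04). Prl3d1 averaged -3.91 in RASV12-first cells and -4.48 in shp53 cells. Leaving out any 1 array left 6 or 7 genes lower, and averaging the closest pairs left 3.

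The genes called in the glycolysis and cholesterol lists were lower. Of 28 glycolysis and hypoxia genes, 0 were higher and 6 lower. Car9, a carbonic anhydrase induced by hypoxia, read -3.55, -4.33 and -4.23 on the shp53-first arrays, against -0.84, -0.90 and -0.80 on the RASV12 arrays and fell by 3.19 ± 0.33 (SE) on the log2 scale, adjusted p = 1.48e-04. Hk2, hexokinase 2, fell by 1.27 ± 0.37 (SE) on the log2 scale, adjusted p = 0.0291, and Slc16a3, a lactate exporter, fell by 2.81 ± 0.70 (SE) on the log2 scale, adjusted p = 0.0159. The list's median level was 1.39, 0.18 and 0.11 on the shp53-first arrays, against 1.51, 1.21 and 1.60 on the RASV12 arrays, so shp53-first replicate 1 lay among the RASV12 arrays. The 6 lower genes were 9, 1 and 1 without shp53-first replicate 1, 2 or 3, 1, 5 and 1 without RASV12 replicate 1, 2 or 3, and 1 with the closest pairs averaged.

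Of 22 cholesterol synthesis genes, 0 were higher and 6 lower. Their median level was -1.02, 0.27 and 0.36 on the shp53-first arrays, against 0.67, -0.13 and 0.71 on the RASV12 arrays. The groups overlapped in it, with RASV12 replicate 2 below shp53-first replicates 2 and 3. Mvk, mevalonate kinase, read 0.45, 1.31 and 0.96 on the shp53-first arrays, against 2.68, 1.72 and 2.69 on the RASV12 arrays and fell by 1.45 ± 0.29 (SE) on the log2 scale, adjusted p = 0.00567. Msmo1, a sterol oxidase, fell by 1.19 ± 0.30 (SE) on the log2 scale, adjusted p = 0.0166. RASV12 replicate 2 was the lowest RASV12 array in both, and without it 13 genes were lower, against 2 without RASV12 replicate 1 or 3. The count of 6 was 4 without shp53-first replicate 1, 2 or 3, and 0 with the closest pairs averaged.

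NRF2 and glutathione genes had 0 of 24 higher and 2 lower, among them Hmox1, heme oxygenase 1 (log2 change -1.16 ± 0.38 SE, adjusted p = 0.0472). The lower count was 1 without shp53-first replicate 2 or 3 or RASV12 replicate 2, 0 without RASV12 replicate 1 or 3, and 0 with the closest pairs averaged. Of 28 genes of the amino acid and ER stress responses, 1 was higher and 3 were lower (3.57% and 10.7%, against 10.3% and 15.1% of all genes). Without shp53-first replicate 1 the lower count was 5, and it was 1 without any other array except RASV12 replicate 2.

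Of 26 lysosome genes, 1 was higher and 6 lower (3.85% and 23.1%, against 10.3% and 15.1% of all genes). Ctsk, cathepsin K, read 1.70, 0.69 and 0.70 on the shp53-first arrays, against 3.01, 3.02 and 3.25 on the RASV12 arrays and fell by 2.07 ± 0.30 (SE) on the log2 scale, adjusted p = 0.00103. Ctss, a cathepsin abundant in macrophages, was at least 21.9-fold lower (adjusted p = 0.00141). Tfeb, the factor that drives lysosome genes, rose by 1.52 ± 0.32 (SE) on the log2 scale, adjusted p = 0.00747. Glb1, whose enzyme gives the senescence-associated beta-galactosidase stain, read 0.97, 0.42 and 0.45 on the shp53-first arrays, against 0.94, 1.25 and 1.03 on the RASV12 arrays and was not called (log2 difference -0.46 ± 0.22 SE, adjusted p = 0.16). The 6 lower genes were 11, 3 and 3 without shp53-first replicate 1, 2 or 3, 3, 4 and 3 without RASV12 replicate 1, 2 or 3, and 0 with the closest pairs averaged. Among 11 BCL2 family genes, Bcl2 (log2 change 0.59 ± 0.17 SE, adjusted p = 0.0282) and Bcl2l13 were higher and Bid (log2 change -1.08 ± 0.26 SE, adjusted p = 0.0143), a death agonist, was lower. The family's shares were 18.2% higher and 9.09% lower. The count of 2 higher was 0 without shp53-first replicate 1 or RASV12 replicate 1 or 3 and 1 without any other array, and 0 of the family were called with the closest pairs averaged.

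Among the largest increases in single genes, Slc17a6, a vesicular glutamate transporter of neurons, read 0.46, 0.44 and 0.48 on the shp53-first arrays, against -6.18, -5.62 and -6.72 on the RASV12 arrays. It was below background on all RASV12 arrays and was at least 86.5-fold higher (adjusted p = 3.99e-05); its mean was -1.88 in RASV12-first cells and -5.73 in shp53 cells. Rgs6, a regulator of G-protein signalling, was at least 5.93-fold higher (adjusted p = 2.78e-06) by its brighter probe, while another of its probes was above background on 1 RASV12 array. Apod, apolipoprotein D, read 2.83, 2.14 and 2.10 on the shp53-first arrays, against -3.57, 0.07 and -3.49 on the RASV12 arrays and rose by 4.69 ± 1.16 (SE) on the log2 scale, adjusted p = 0.0155, with RASV12 replicate 2 the nearest to the shp53-first arrays. Vmn1r65, annotated as a vomeronasal receptor, had the same order of arrays (log2 change 4.62 ± 0.92 SE, adjusted p = 0.00562), with 1 of 3 RASV12 arrays well above background, and Clec14a, a lectin of endothelium, was at least 7.72-fold higher (adjusted p = 0.00336). Grp, the gastrin-releasing peptide, was at least 7.33-fold higher (adjusted p = 5.64e-04).

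Among the largest decreases, Rpl39l, a ribosomal protein variant of testis, read -8.10, -6.37 and -7.15 on the shp53-first arrays, against 2.03, 1.56 and 2.12 on the RASV12 arrays and was at least 231-fold lower (adjusted p = 5.61e-06). It averaged -5.81 in RASV12-first cells and 1.47 in shp53 cells. Anxa8, an annexin, read -2.80, -5.22 and -5.31 on the shp53-first arrays, against 1.97, 3.22 and 2.06 on the RASV12 arrays and fell by 6.86 ± 0.60 (SE) on the log2 scale, adjusted p = 6.13e-05. Clec4d, a lectin of myeloid cells, was at least 44.4-fold lower (adjusted p = 7.85e-04). Trf, transferrin, read -3.55, -5.13 and -5.36 on the shp53-first arrays, against 2.05, 1.88 and 2.30 on the RASV12 arrays and fell by 6.76 ± 1.03 (SE) on the log2 scale, adjusted p = 0.00139. Cbr2, a carbonyl reductase, read -4.19, -6.29 and -6.12 on the shp53-first arrays, against 0.41, 2.91 and 0.45 on the RASV12 arrays (log2 change -6.79 ± 1.16 SE, adjusted p = 0.00264), with 2 of 3 shp53-first arrays well above background. Ccn5, a matricellular protein, read -4.99, -5.65 and -5.58 on the shp53-first arrays, against 0.14, 2.32 and 0.22 on the RASV12 arrays and fell by 6.30 ± 0.50 (SE) on the log2 scale, adjusted p = 3.18e-05, and Fmo2, a flavin monooxygenase, was at least 53-fold lower (adjusted p = 3.78e-04). The probes of Anxa8, Trf, Ccn5, Cdh3, Hoxd13 and Lmod1 were well above background on 2 of 3 shp53-first arrays.

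For called genes below background on all arrays of 1 group, detection in the other groups was counted. The share of each pattern over all tested genes was not counted, so the counts describe these genes only. A probe also had to be well above background on every array of some group to be tested. Of 180 genes called lower for which a fold bound could be given, since their probe was well above background on at least 1 RASV12 and on 0 shp53-first arrays, 90 were well above background on all 3 shp53 arrays and on 0 RASV12-first arrays, as Clec4d and Fmo2 were. A further 32 were measured on 0 arrays of either group, so that RASV12 cells stood alone, as in Il1a. Of 107 genes called higher with such a bound, 23 were measured on 0 arrays of either, as Tlx1 was, 17 on all RASV12-first and 0 shp53 arrays, and 17 on all shp53 and 0 RASV12-first arrays. The 90 lower genes, and the 17 higher genes measured in RASV12-first but not shp53 cells, split the groups as Xist and Ddx3y did. Whether the sex or the embryo of origin of the cells had a part in any of these patterns was not tested.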

How the data were processed

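The 12 samples are 1-colour Agilent arrays, Cy3-labelled from 100 ng of RNA per the labels' protocols. Processed signal intensities of single spots, which Feature Extraction had corrected for background and spatial trend per the file headers, were deposited without scaling across arrays. The median spot and local background intensities and flags of 0 or 1 (another kind of value: well above background, non-uniform, outlier, saturated) were also deposited. The headers give version 11.5.1.1 and the submitters' processing notes 10.7.3.1. A log2 table deposited by the authors was used as an alternative. Its 25916 probes matched the scaled log2 signal used here, centred on the shp53 arrays' median, at r of 0.99 to 0.9998.

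From the files, 1717 spot values (0.333%) marked non-uniform or outlying were left out, and 0 were saturated. The 75th percentile of each array's non-control spots was taken off the log2 processed signal, and spots were averaged per probe. A probe had to be well above background in every array of some group to stay (23899, of which 4855 had no gene name). A gene with several kept probes (3680 genes) is given by the brightest on average. Names and promoters came from RefSeq tables, and 868 genes on chromosomes X and Y were left out. The 12 arrays were fitted in limma 3.58.1 (R 4.3.3, with 1.17.8 of the data.table package) with 1 mean per group and empirical Bayes moderation. The contrast is shp53-first minus RASV12, with Benjamini-Hochberg adjustment over 13904 genes. An exact permutation test of 3 arrays against 3 has a smallest two-sided p of 0.1, so p-values come from this model. A fold is a bound ("at least") where no array of a group read the gene's probe well above background: the brighter group's mean is set against, per array, the higher of the probe's signal and the lowest signal among probes well above background. The pipeline was tested on simulated data.

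The members and the 42 gene lists were chosen with earlier results of these data known, so list counts are descriptions. Named genes are the 15 highest and 15 lowest called genes without overlap, up to 4 called members of each list by adjusted p, and a fixed set of 25. Ddb2, H2-Eb1, Irf9, Itgam, Ndc80, Ifitm3, Gbp3, Stat2, Hoxd4 and Hoxd12 fall outside that rule and were named after their values were seen. So were uncalled members given by name and the figures' genes outside the rule. The promoters shown were chosen by adjusted p among called members of the mitosis and interferon lists that carry the motif, with genes of chromosome 18 passed over. Some genes are not reported here. Alternatives were other background correction, scaling, filters, probe rules and thresholds, the replicate number as a block, the 6 arrays alone, the authors' table and each array left out.

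Per the file headers, each of 3 slides held replicate 1, 2 or 3 of every group, and array position equals group, so position and group cannot be told apart. Deviations of same-numbered arrays from their group means correlated at -0.27, -0.34 and 0.12, so the numbers were not taken to pair the samples.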

Additional observations from a re-analysis of the deposited data

Results flagged for a closer look

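Signal was found in genes outside the comparison, which leaves out the sex chromosomes: the Y-linked genes Eif2s3y, Ddx3y and Uty were well above background on all shp53-first arrays and on 0 RASV12 arrays, while Kdm5d was not well above background on any array. Eif2s3y was at least 95.8-fold higher in shp53-first cells, with a mean level of 0.58 ± 0.18 in them and -7.84 ± 0.22 in RASV12 cells (SD, n = 3 each). Ddx3y was at least 46.5-fold higher, at -0.46 ± 0.29 in shp53-first cells and -8.05 ± 0.16 in RASV12 cells. Uty was at least 2.79-fold higher, at -4.52 ± 0.39 in shp53-first cells and -7.95 ± 0.38 in RASV12 cells. RASV12-first arrays read these genes as shp53-first arrays did, and shp53 arrays as RASV12 arrays did. These folds are bounds and were not tested.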

How the results depend on the processing

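In the 23 alternatives, genes called lower outnumbered genes called higher, with a share of higher calls between 29.8% and 45.4%. Counts of higher and lower calls were 1435 and 2098 in the fit reported. They were 69 and 121 with normexp background correction, 413 and 794 with the replicate block on the 6 arrays, 560 and 1034 at an adjusted p under 0.01, 760 and 1066 at 2-fold or more, and 111 and 261 with the closest pair of arrays of each group averaged. Leaving out 1 array gave 780 to 1531 higher and 1287 to 2118 lower calls, with the fewest without RASV12 replicate 3. The 6 arrays fitted alone gave 1172 and 1808. In that fit, 3 higher and 4 lower ERK genes, 7 lower contractile genes, 4 lower patterning factors and 3 lower cholesterol synthesis genes were called. With normexp, 77 local backgrounds stood over 5 times their array's median. With these replaced by the median, an alternative chosen after seeing the data, the counts were 1147 and 1475. Normexp also moved the median log2 difference of all genes to 0.12, against -0.05 in the fit reported. Trp53 stayed between -3.15 and -1.69 on the log2 scale and missed the threshold under normexp (-1.69, adjusted p = 0.231).

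Of 170 named genes called, 23 stayed called in every alternative and 7 turned their direction, none past the threshold. With normexp the log2 difference was 0.08 in Fgf2, 0.42 in Prl8a6, 0.17 in Cdh5, 0.48 in Laptm5, 0.25 in Esam, 0.67 in Des and 0.20 in Cebpa, and with extreme backgrounds replaced it was 0.19 in Des; beyond the background setting itself, the cause was not tested. Of 12 named genes not called, 8 were called in some alternative. Igfbp3, called in no alternative, was -1.35 to 0.66 with 1 array left out: it was above 0 without shp53-first replicate 2 (0.35) or 3 (0.41) or RASV12 replicate 2 (0.66).

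With the replicate block on all 12 arrays, 1519 genes were higher and 2092 lower, and Trp53 was called with either block. The block fit on 6 arrays has few residual degrees of freedom by construction. The numbers were not taken to pair the samples. Between 57.4% and 62.4% of probes were well above background on the 6 arrays, and for a probe that no array of a group measured the fold is a bound.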
